A study of Mus musculus with 25 samples.

Results

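The messenger RNAs of 10 enzymes and enzyme subunits that write or erase Polycomb and DNA methylation marks were followed in pituitary tumors in which RB, the product of Rb1, was knocked down and then allowed to return. They are Ezh1, Ezh2, Eed, Suz12, Dnmt1, Dnmt3a, Dnmt3b, Uhrf1, Hells and Tet1. The genes were chosen by name, and all 10 were present among the 15315 genes of a long-term and the 14007 genes of a short-term experiment. Levels are in FPM, fragment counts divided by DESeq2 size factors and put on one library size, and 1 value was available for each of 25 shRb mice in 7 groups. These mice carry Rosa26 rtTA, a doxycycline (dox) dependent activator under a broadly active promoter, and Col1a1 shRb5-4, a GFP-linked shRNA against Rb1 from 1 embryonic stem cell clone. They were young adults when dox was started, and exact ages at collection were not given in the sources used here. Every group had received dox, and pituitaries never exposed to it were not analysed here.

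In the long-term experiment, made by poly(A) enrichment, pituitaries were taken after 6 weeks on dox (6w+dox, 3 females), after 12 weeks on dox (12w+dox, 2 females and 2 males) and after 6 weeks on followed by 6 weeks off dox (12w-res, 3 females and 2 males). In the short-term experiment, made by rRNA depletion per the labels, they were taken after 16 weeks on dox (16w +dox, 3 males) and then 1 day (1d -dox, 4 females), 3 days (3d -dox, 3 males) or 5 days (5d -dox, 3 females) after its removal. The 2 experiments differ in library type and were not compared in level. Reads on genes ranged from 19066053 to 28968476 per long-term mouse and from 9573101 to 13036900 per short-term mouse. Rb1 was at 1.86 to 5.09 FPM in the long-term mice on dox and at 16.1 to 20.3 FPM in the 12w-res mice. In the short-term mice GFP went from 1025 to 1360 FPM on dox to 9.34 to 15.2 FPM after 5 days, while Rb1 was at 3.47 to 4.89 FPM on dox and at 4.92 to 5.38 FPM after 5 days. Pomc, the prohormone of melanotrophs, made up 12.9% to 43.2% of the long-term and 4.96% to 17.9% of the short-term reads that lay on genes, and all 5 melanotroph markers were detected in every group.

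Polycomb repressive complex 2 (PRC2) methylates a histone tail and keeps developmental genes silent. EZH2 and its paralog EZH1 are its alternative catalytic subunits, and EED and SUZ12 are the core subunits both depend on. DNA methylation is copied onto new strands by DNMT1, which UHRF1 recruits to hemimethylated sites, while HELLS remodels nucleosomes so that the methyltransferases gain access. DNMT3A and DNMT3B set new methylation, and TET1 oxidizes methylcytosine on the way to its removal. Several of these genes are known targets of E2F, the transcription factors that RB restrains.

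The 4 octamers TTTCCCGC, TTTCGCGC, TTTGCCGC and TTTGGCGC, forms of the E2F recognition sequence, were searched on both strands of the RefSeq promoter windows, which run from 250 bases before to 50 bases after each transcription start (GRCm38.p6). Matches on opposite strands may overlap. At least 1 octamer was present in 744 of all 32851 windows (2.26%) and in 5 of the 15 windows of the 10 genes. The stretches around these 5 matches are shown because these genes include those with the largest changes described further on, and a stretch of the Ezh1 promoter, which held no octamer, is shown for comparison. Capitals mark the octamer, or its reverse complement in Dnmt1, and the genes lie on the strand given.
Ezh2, chr6:47595011-47595062, minus strand: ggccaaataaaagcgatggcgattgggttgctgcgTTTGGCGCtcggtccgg
Suz12, chr11:79992856-79992929, plus strand: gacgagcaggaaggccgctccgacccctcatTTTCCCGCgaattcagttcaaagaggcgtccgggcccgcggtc
Dnmt1, chr9:20952800-20952873, minus strand: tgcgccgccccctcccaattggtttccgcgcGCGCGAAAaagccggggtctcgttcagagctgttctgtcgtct
Uhrf1, chr17:56304093-56304170, plus strand: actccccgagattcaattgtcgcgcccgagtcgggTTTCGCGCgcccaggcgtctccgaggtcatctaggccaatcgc
Hells, chr19:38930893-38930970, plus strand: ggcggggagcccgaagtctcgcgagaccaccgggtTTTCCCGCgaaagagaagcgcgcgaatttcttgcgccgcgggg
Ezh1, chr11:101226444-101226521, minus strand: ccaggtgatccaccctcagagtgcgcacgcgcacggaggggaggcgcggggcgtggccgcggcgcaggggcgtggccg

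Positions are counted from the RefSeq transcript start behind each window. For the matched windows of Ezh2, Hells, Uhrf1 and Dnmt1 it lies inside the whole gene span given further on. The octamer of Ezh2 began 4 bases after that start, that of Hells 62 bases before it, and those of Suz12 and Dnmt1 219 bases before it. The Dnmt1 window, which held a second octamer 34 bases after the start, was 1 of 3 windows of that gene. The Uhrf1 match lay 185 bases before the start in 1 of its 2 windows. No octamer was found in the windows of Eed, Dnmt3a, Dnmt3b and Tet1, which says only that these letters were not in these windows. Among genes tested in the long-term experiment 4.45% of those with a window held an octamer. The share was 12.0% of the 565 called lower and 2.08% of the 672 called higher in 12w-res than in 12w+dox. Of the 10 genes 5 held one, as did 7 of 20 cell cycle genes with a window, from a list described further on.

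The first question was whether these enzymes changed as tumors grew from 6 to 12 weeks of RB knock-down. None of the 10 genes passed the test, which asked for an adjusted p under 0.05 (limma, Benjamini-Hochberg over all 15315 genes) and an absolute log2 fold change over 1. Of all genes tested 3.15% were called higher and 4.04% lower in this comparison. At an unadjusted p under 0.05 there were 3 of the 10, beside 36.5% of all genes, and edgeR and DESeq2 on reads recovered from the FPM also called 0. All 10 log2 fold changes were above 0, from 0.038 for Suz12 to 0.63 for Tet1, with a median of 0.26 beside -0.0063 over all genes.

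Tet1 was at 15.4, 13.9 and 16.8 FPM in the 6w+dox mice and at 31.4, 20.9, 16.4 and 30.7 FPM in the 12w+dox mice. A 12w+dox mouse fell inside the 6w+dox range. The log2 fold change was 0.63 (SE 0.21) with an adjusted p of 0.0432 in limma, under the minimum fold change. Ezh1 and Dnmt3a varied most among the 6w+dox mice, with Ezh1 at 8.33, 13.6 and 24.3 FPM. The same mice had Dnmt3a at 35.8, 49.3 and 77.0 FPM, in the same order as Ezh1. The values of both genes overlapped between the groups. Markers of other pituitary cells moved with this comparison: 6 of 9 markers of other endocrine cells fell, with sums of 58671 to 94165 FPM in 6w+dox and 1218 to 13061 FPM in 12w+dox, and all 4 neural lobe markers fell. Also lower were 2 of 4 stem and folliculostellate markers (Aldh1a2 and Sox9), 2 of 5 endothelial markers (Emcn and Tie1) and 3 of 7 fibroblast and mural markers (Lum, Dcn and Pdgfra). Of the 5 melanotroph markers Drd2 and Pax7 rose and none was called lower, while 3 had log2 fold changes below 0. The median of the 5 was -0.24, and their sum was 109631 to 381378 FPM in 6w+dox and 96583 to 198910 FPM in 12w+dox. The part of these cell types in the values of the 10 genes was not tested.

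The second question was what followed when RB returned in tumors taken off dox after 6 weeks of knock-down. Compared with 12w+dox, 5 of the 10 fell in 12w-res: Uhrf1, Hells, Ezh2, Dnmt1 and Tet1, by 2.28-fold to 12.7-fold on the scale of log2(FPM + 0.5). None rose. Of all genes tested 5.04% were called lower and 6.24% higher. The catalytic subunit Ezh2 fell while Ezh1 did not pass the test, and the maintenance genes Uhrf1, Hells and Dnmt1 fell while the de novo methyltransferases Dnmt3a and Dnmt3b did not pass it. Differences between genes were tested as ratios, given further on. Values of the groups did not overlap, with 12w-res lower, for 8 of the 10 genes, against 17.4% of all genes.

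**Figure D1:**
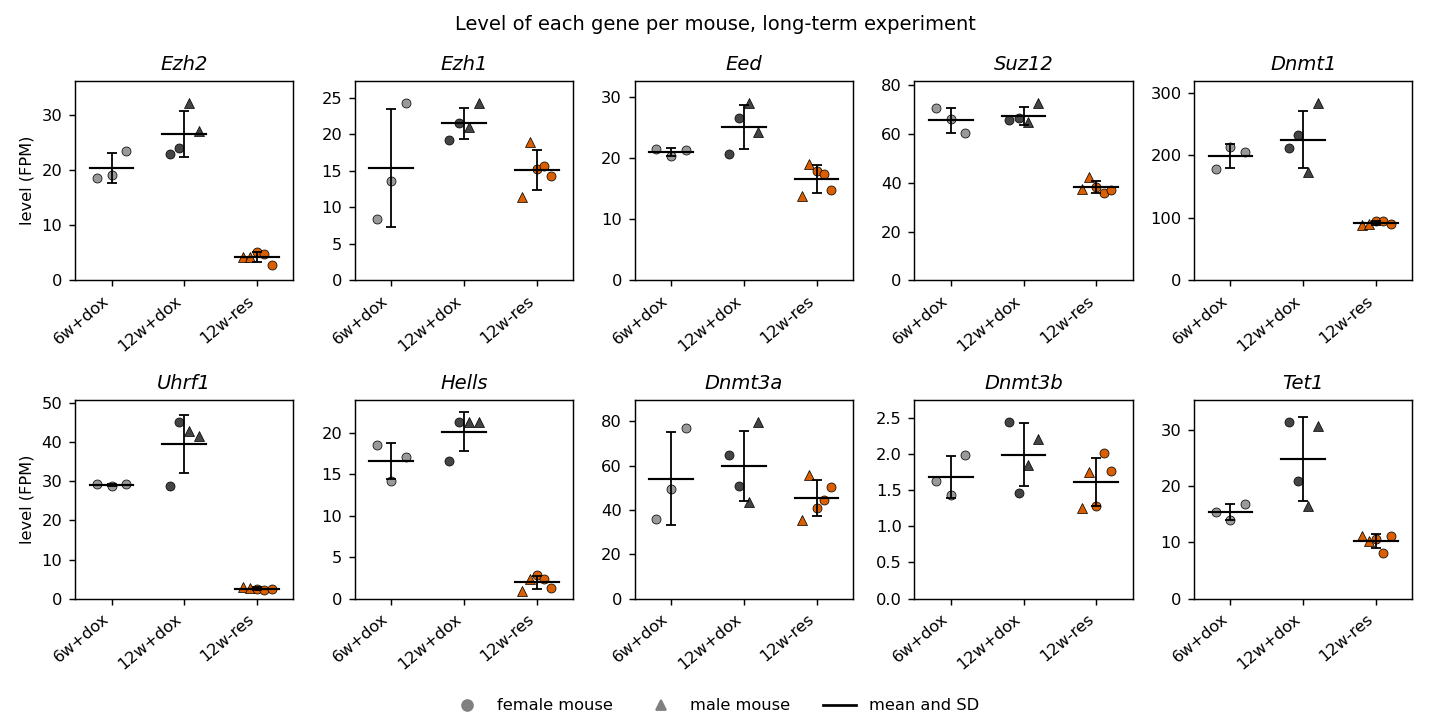
Level of each of the 10 genes (FPM, linear axis from 0) in each long-term mouse, with circles for females, triangles for males, a horizontal line for the mean and bars for the SD. For Uhrf1 the 5 mice of 12w-res sit between 2.13 and 3.07 FPM and all mice on dox at 28.7 FPM or above, whereas for Dnmt3a and Dnmt3b the 3 groups overlap.

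Uhrf1 (chr17:56303337-56323486, plus strand), which brings DNMT1 to newly copied DNA, was at 28.7, 45.1, 42.8 and 41.4 FPM in the 12w+dox mice. It was at 3.07, 2.75, 2.5, 2.13 and 2.60 FPM in the 12w-res mice, far under every mouse on dox. This was a log2 fold change of -3.67 (SE 0.15, adjusted p 3.65e-09 in limma), the 17th lowest of 15315 genes. In 6w+dox Uhrf1 was at 29.2, 28.7 and 29.3 FPM.

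Hells (chr19:38930262-38970470, plus strand), the nucleosome remodeler, was at 16.6, 21.2, 21.3 and 21.3 FPM in the 12w+dox mice. In the 12w-res mice it was at 0.884, 2.32, 2.91, 2.36 and 1.33 FPM, from 17 to 64 reads per library, and no restored mouse came near the group on dox. In log2 terms Hells changed by -3.13 (SE 0.24, adjusted p 3.01e-07 in limma).

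Ezh2 (chr6:47530274-47595270, minus strand) was at 22.9, 24.0, 32.2 and 27.1 FPM in the 12w+dox mice and at 4.16, 4.23, 5.19, 4.84 and 2.82 FPM in the 12w-res mice. All restored mice were lower than all mice on dox. In log2 terms Ezh2 changed by -2.52 (SE 0.17, adjusted p 1.01e-07 in limma). Exons of Ezh2 overlap those of Gm26625 on the other strand, and the strand setting of the counting was not given in the sources used here, so reads of the 2 cannot be told apart. The same holds for Eed with E230029C05Rik, Suz12 with Gm26563 and Dnmt3a with Dnmt3aos.

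Dnmt1 (chr9:20907206-20959888, minus strand), the maintenance methyltransferase, was at 212, 231, 173 and 283 FPM in the 12w+dox mice. In the 12w-res mice it was at 87.8, 90.5, 94.8, 93.9 and 89.8 FPM, a narrow band under all mice on dox. The log2 fold change was -1.27 (SE 0.12, adjusted p 3.36e-06 in limma). Tet1 (chr10:62804570-62887469, minus strand) was at 11.1, 10.3, 10.6, 8.21 and 11.2 FPM in the 12w-res mice, also without overlap with 12w+dox. Its log2 fold change was -1.19 (SE 0.18, adjusted p 0.000215 in limma).

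The core subunits Suz12 and Eed had smaller differences that stayed under the minimum fold change. Suz12 was at 65.8, 66.4, 64.9 and 72.7 FPM in 12w+dox and at 37.4, 42.2, 38.4, 35.9 and 36.9 FPM in 12w-res. The groups did not overlap, and the log2 fold change was -0.81 (SE 0.090, adjusted p 1.23e-05 in limma). Eed was at 20.6, 26.6, 29.0 and 24.2 FPM in 12w+dox and at 13.7, 19.1, 17.9, 17.4 and 14.8 FPM in 12w-res, also without overlap. Its log2 fold change was -0.58 (SE 0.13, adjusted p 0.00340 in limma).

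Ezh1, the paralog of Ezh2, was at 19.2, 21.6, 21.0 and 24.3 FPM in 12w+dox and at 11.4, 19.0, 15.2, 15.7 and 14.3 FPM in 12w-res. The highest restored mouse was just under the lowest mouse on dox. The log2 fold change was -0.51 (SE 0.23) with an adjusted p of 0.10 in limma. Dnmt3a was at 64.9, 50.8, 43.7 and 79.8 FPM in 12w+dox and at 35.3, 55.9, 40.9, 44.6 and 50.2 FPM in 12w-res, with overlap. Its log2 fold change was -0.38, with a 95% interval from -0.84 to 0.087. Dnmt3b was low in both groups, between 1.46 and 2.44 FPM in 12w+dox and between 1.25 and 2.01 FPM in 12w-res, or 24 to 79 reads per library. Its log2 fold change was -0.24, with a 95% interval from -0.65 to 0.18, so a fall of the size seen for Dnmt1 lay outside the interval for both de novo genes.

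**Figure D2:**
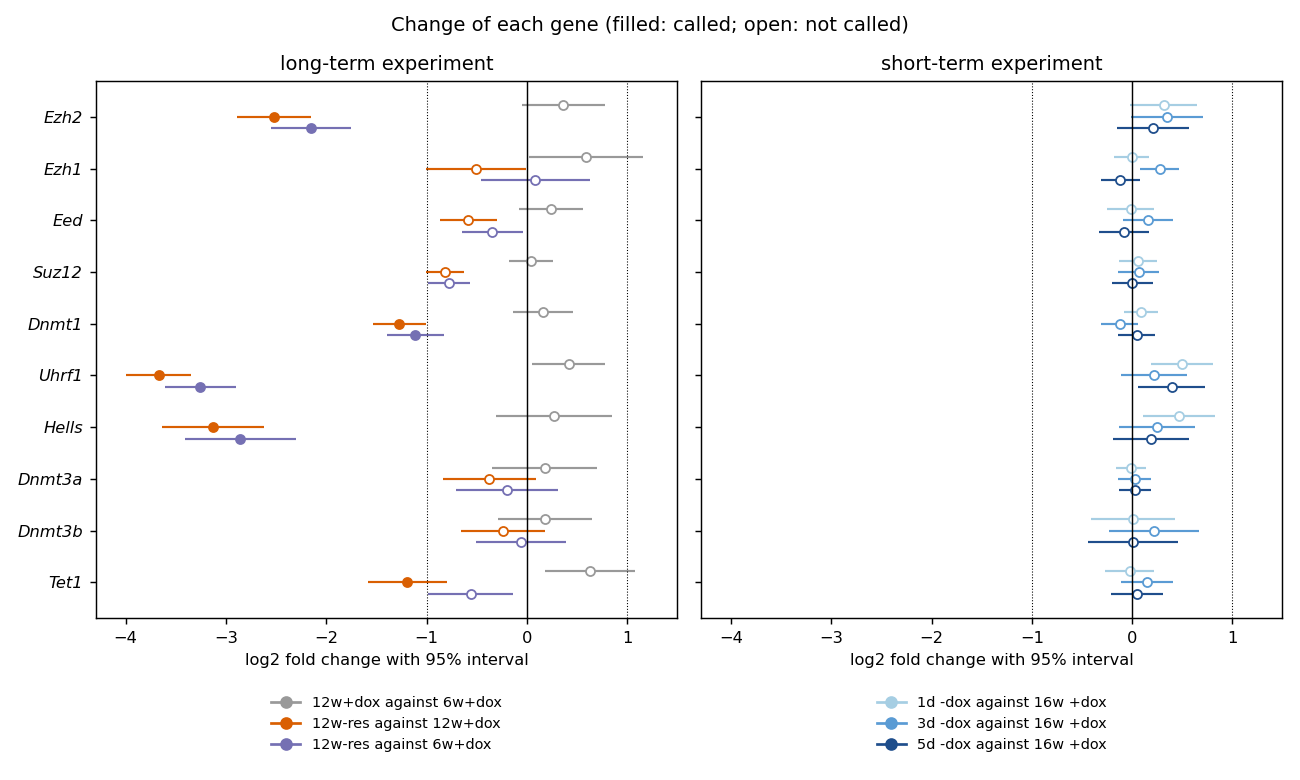
Log2 fold change of each gene (points) with its 95% interval (bars) from limma, for the 3 long-term comparisons at left and 3 short-term comparisons at right, where dotted lines mark the minimum fold change and filled points were called. Uhrf1, Hells and Ezh2 lie at -2.15 or lower in both comparisons with 12w-res, and no short-term point is filled.

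These are bulk pituitaries, in which fewer cells of a type and less RNA per cell cannot be told apart. Other cell types moved with the same comparison. All 7 fibroblast and mural markers rose in 12w-res, with a summed level of 797 to 1271 FPM against 141 to 438 FPM in 12w+dox. Of the endothelial markers 4 of 5 rose, and their sum was 123 to 140 FPM against 33.6 to 70.3 FPM. Of the markers of other endocrine cells Gh and Prl rose, with a summed level of 17338 to 34984 FPM over all 9 against 1218 to 13061 FPM. The stem and folliculostellate markers Sox9 and Aldh1a2, 2 of 4, rose as well. Of the 5 melanotroph markers Pcsk2 rose and none was called lower, while 3 had log2 fold changes below 0 and the median was -0.14. Their sum was nevertheless 458945 to 581250 FPM in 12w-res against 96583 to 198910 FPM in 12w+dox. Most of it was Pomc, at 452682 to 573321 FPM against 93231 to 194592 FPM, without overlap though not called. The 6 immune markers in the tables, of 8 listed, were not called, with sums of 145 to 216 FPM against 96.7 to 126 FPM. Their part in the result was not tested. Scaling also matters here, because the share of gene reads on Pomc was 39.1% to 43.2% in 12w-res and 12.9% to 23.0% in 12w+dox. With totals of reads in place of size factors the median of all genes moved from -0.0040 to -0.61. Calls over all genes went from 955 higher and 772 lower to 244 higher and 3364 lower. At that scaling 9 of the 10 genes were called lower, among them Ezh1 and Dnmt3a. Whether Ezh1 and Dnmt3a passed the test thus depended on the scaling.

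Against the tumors at the start of the dox-free period, 6w+dox, 4 of the 10 genes were lower in 12w-res, where 5.82% of all genes were called lower and 5.81% higher, and none of the 10 was higher. These were Uhrf1 (log2 fold change -3.26, SE 0.16, adjusted p 1.70e-08 in limma), Hells (-2.86, SE 0.26, 2.17e-06), Ezh2 (-2.15, SE 0.19, 1.40e-06) and Dnmt1 (-1.11, SE 0.13, 3.18e-05). Tet1 had a log2 fold change of -0.56 (SE 0.20, adjusted p 0.0428 in limma) and Suz12 of -0.78 (SE 0.098, adjusted p 4.53e-05 in limma), both under the minimum fold change. Ezh1, at 0.084, had a 95% interval from -0.46 to 0.63. The groups did not overlap for 7 of the 10 genes, beside 15.9% of all genes. Both comparisons share the 12w-res mice. The neural lobe markers, 4 of 4, and 3 of the 9 markers of other endocrine cells were lower in 12w-res than in 6w+dox as well, as was Aldh1a2, while Pcsk2 and 3 of the 7 fibroblast and mural markers were higher, and their part was not tested.

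Both groups at 12 weeks held both sexes, so the effect of restoration could be set between sexes. The log2 fold change of Uhrf1 was -3.65 in females and -3.65 in males, and that of Hells was -2.88 in females and -3.46 in males. The interaction passed for 0 of the 10 genes, at adjusted p values of 0.999 or above in limma and in edgeR, while over all 15108 genes tested it passed for 13 in each. At an unadjusted p under 0.05 it passed for 641 genes in limma and 676 in edgeR, none of them among the 10 in limma.

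Within a library, the ratio of 2 genes does not depend on the scaling between libraries, and it was compared between groups with exact two-sided permutation tests, adjusted over 21 tests. EZH2 and EZH1 are alternatives in the same complex. The log2 ratio of Ezh2 to Ezh1 averaged 0.53 ± 0.60 (SD, n = 3) in 6w+dox, 0.29 ± 0.22 (n = 4) in 12w+dox and -1.84 ± 0.39 (n = 5) in 12w-res. Every restored mouse was under every mouse on dox. The difference of -2.14 between the 12-week groups had an exact permutation p of 0.0159, the smallest these group sizes allow, and an adjusted p of 0.111.

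The ratio of the maintenance to the de novo methyltransferase, Dnmt1 to Dnmt3a, averaged 1.94 ± 0.47 (SD, n = 3) in 6w+dox, 1.93 ± 0.21 (n = 4) in 12w+dox and 1.03 ± 0.26 (n = 5) in 12w-res on the log2 scale. The restored mice, at 0.70 to 1.31, did not overlap the mice on dox, at 1.42 to 2.31. The log2 ratio of Uhrf1 to its partner Dnmt1 was also lower in every restored mouse than in every mouse on dox, and averaged -2.77 ± 0.15 (SD, n = 3) in 6w+dox, -2.51 ± 0.40 (n = 4) in 12w+dox and -5.14 ± 0.23 (n = 5) in 12w-res. For both ratios 12w-res against 12w+dox gave an exact permutation p of 0.0159 and an adjusted p of 0.111, with differences of -0.90 and -2.63. Against 6w+dox the exact permutation p was 0.0357, again the smallest possible, and the adjusted p 0.125 for all 3 ratios. None of the 21 tests had an adjusted p under 0.05, and at these group sizes none could have had one. The adjusted values therefore do not decide whether the ratios differed.

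**Figure D3:**
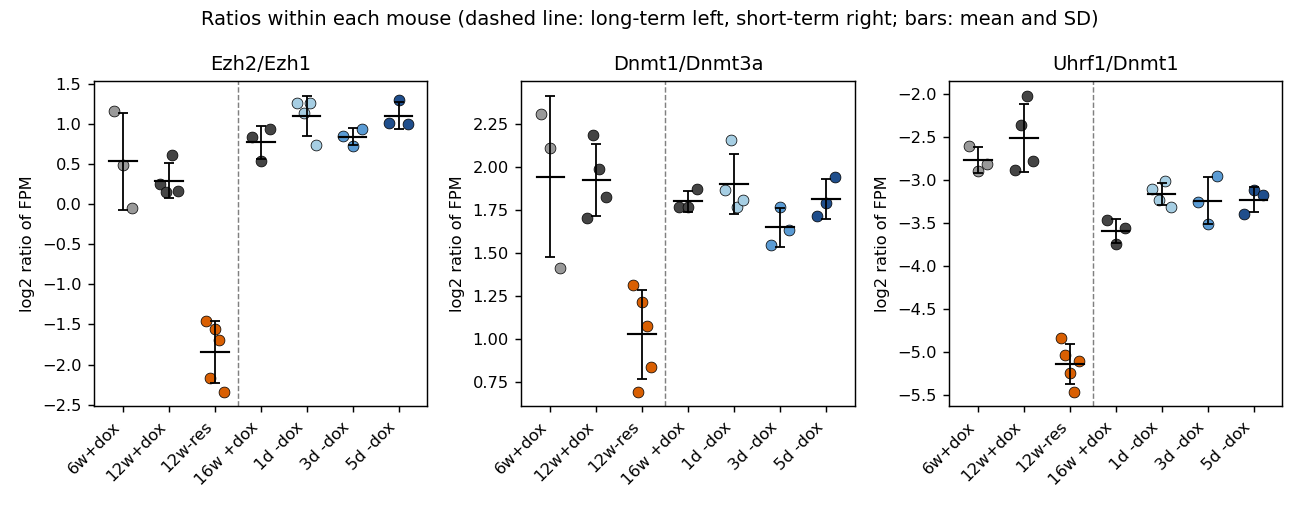
Log2 ratio of FPM of 2 genes in each mouse (points), with the mean as a line and the SD as bars, for the 3 long-term groups left and the 4 short-term groups right of the dashed line. For all 3 ratios the 5 mice of 12w-res lie under every other long-term mouse.

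Per kilobase of the longest GENCODE transcript, Dnmt1 had the highest level of the 10 genes in all 7 groups. It was at 33.8 ± 3.23 FPM per kb (SD, n = 3) in 6w+dox, 38.3 ± 7.76 (n = 4) in 12w+dox and 15.6 ± 0.496 (n = 5) in 12w-res. In 6w+dox and 12w+dox alike the order was Dnmt1, Suz12, Eed, Uhrf1, Ezh2, Dnmt3a, Ezh1, Hells, Tet1 and Dnmt3b. Neighbours from Uhrf1 to Hells in 6w+dox, and from Eed to Ezh1 in 12w+dox, overlapped in their ranges. In 12w-res the order was Dnmt1, Suz12, Eed, Dnmt3a, Ezh1, Ezh2, Uhrf1, Tet1, Dnmt3b and Hells. Suz12 and Eed, Dnmt3a and Ezh1, Uhrf1 and Tet1, and Dnmt3b and Hells overlapped there, and the other neighbours did not. Hells, at 0.334 FPM per kb, was thus at the level of Dnmt3b, at 0.372 FPM per kb, in the restored tumors, whereas the 2 were separate in all groups on dox.

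The other genes of these pathways were taken as lists, whose counts stand beside the 5.04% of all genes that were called lower in this comparison. Of 9 further PRC2 subunits 2 fell in 12w-res against 12w+dox: Phf19, a subunit that directs PRC2 to chromatin, went from 17.9 ± 0.319 FPM (SD, n = 4) to 4.66 ± 0.651 FPM (n = 5), a log2 fold change of -1.84 (adjusted p 1.21e-07 in limma). The other was E130012A19Rik, now named Epop, with a log2 fold change of -1.13 (adjusted p 0.00718 in limma). The median of the 9 was -0.69, and all were below 0.

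PRC1 ubiquitinates a core histone and binds the PRC2 mark. Of its 21 subunits 3 fell: the chromodomain subunit Cbx2 (log2 fold change -1.58), the CpG island binder Kdm2b (-1.11) and the polyhomeotic subunit Phc1 (-1.03), with a median of -0.40. None of 7 erasers of Polycomb marks was called (median -0.39). Of 15 other DNA methylation factors tested, 1 fell: Cdca7, which activates HELLS, went from 8.07 ± 1.48 FPM (SD, n = 4) to 1.35 ± 0.444 FPM (n = 5), a log2 fold change of -2.22 (adjusted p 2.16e-06 in limma). The median of the 15 was -0.39. By contrast all 24 cell cycle genes fell, with a median of -2.94, and their summed level was 1051 to 1384 FPM in 12w+dox and 197 to 210 FPM in 12w-res. Uhrf1 and Hells lay below that median and Ezh2, Dnmt1 and Tet1 above it. Over all genes the median was -0.0040.

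**Figure D4:**
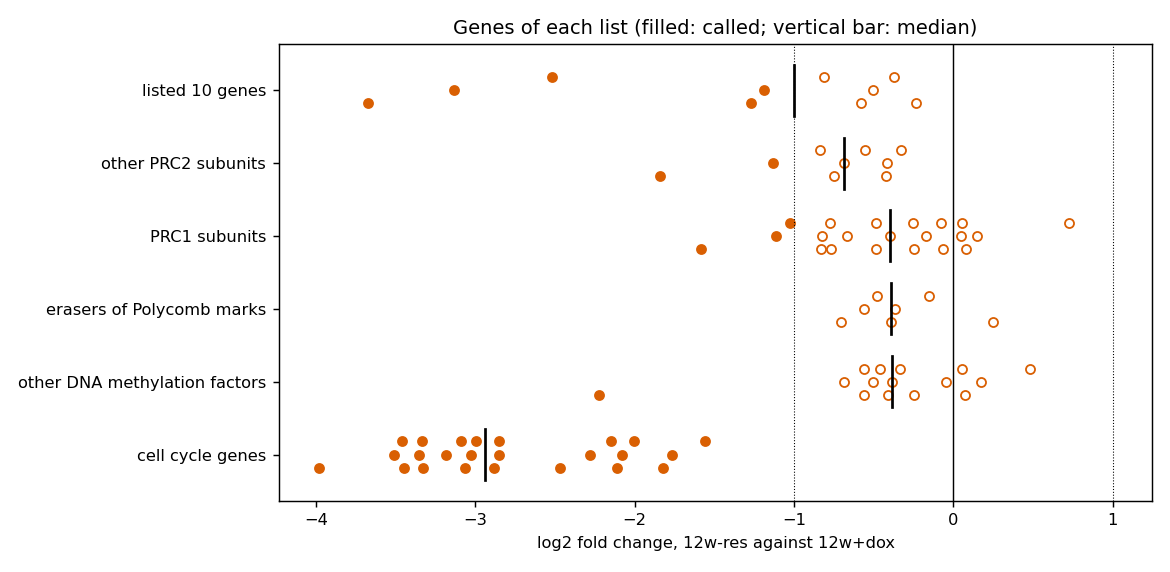
Log2 fold change in 12w-res against 12w+dox (horizontal axis) of each gene tested in the listed 10 genes and 5 wider lists, with filled points for called genes, dotted lines at the minimum fold change and a vertical bar at each list's median. All 24 cell cycle genes are called, against 5 of the 10 genes and 6 of the 52 genes in the other 4 lists.

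Genes that these marks are known to silence were mostly too low to test. Of 41 Hox and Ink4 genes held by Polycomb, 2 were tested in the long-term experiment, the CDK inhibitor genes Cdkn2a and Cdkn2b. Cdkn2a fell from 7.75 to 12.8 FPM over the 4 mice of 12w+dox to 2.32 to 4.12 FPM over the 5 mice of 12w-res, a log2 fold change of -1.47 (adjusted p 6.94e-05 in limma). Cdkn2b had a log2 fold change of 0.32 (adjusted p 0.216 in limma). Of 20 germline genes held by DNA methylation, 6 were tested. Tex11 fell, from 1.80 ± 0.595 FPM (n = 4) to 0.308 ± 0.250 FPM (n = 5), and none rose.

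Of the 84 genes tested in these lists 5 rose and none fell between 6w+dox and 12w+dox. Of all genes 3.15% were called higher and 4.04% lower. Leaving aside the cell cycle genes, those that rose were Lcor (log2 fold change 1.54), Pcgf3 (1.10), the methyl-CpG binder Zbtb38 (1.25) and Tex11 (1.12). Lcor was low and its groups overlapped, at 0.291 to 4.10 FPM in 6w+dox and 3.50 to 6.03 FPM in 12w+dox. Of the cell cycle genes Ccne2 rose, and the list's median was -0.0038. In 12w-res against 6w+dox, where 5.82% of all genes were called lower and 5.81% higher, the list genes called were Phf19, Cbx2, Cbx6, Cdca7 and Cdkn2a, all lower, and 23 of the 24 cell cycle genes, also lower.

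The genes whose profile over the 12 long-term mice was closest to each of the 10 were found by the root mean square difference of centred log2(FPM + 0.5), among 15314 other genes. For Ezh2 they included Pold1 (0.20) and Oip5 (0.22). For Uhrf1 they were Kif18b (0.17), Kif11 (0.20) and Kif14 (0.24), and for Hells they were Arhgap11a (0.27), Ttk (0.28) and Stil (0.29). For Dnmt1 they were Mdc1 (0.13), Senp1 (0.14) and Whsc1 (0.17), and for Tet1 they included Stk35 (0.20) and Cep128 (0.20). The genes closest to Suz12 were Psip1, Smc6 and Rqcd1, and those closest to Eed included Tmco6 and Anapc5. Plekha5, Krba1 and Ddhd2 were closest to Ezh1, Atad2b, Zcchc2 and Tnrc6a to Dnmt3a, and Heatr6, Taf1 and Rcbtb1 to Dnmt3b. Within the 10 genes, Ezh2 and Hells were each other's closest (0.43), as were Suz12 and Eed (0.23) and Ezh1 and Dnmt3a (0.26).

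The short-term experiment asked what happened in the first days after dox removal. None of the 10 genes was called at 1, 3 or 5 days against 16w +dox, or at 5 days against 1 day. The shares of all 13958 genes called higher and lower were 0.00716% and 0.0358% at 1 day, 0.0788% and 0.0502% at 3 days, 0.086% and 0.107% at 5 days, and 0.00716% each way for 5 days against 1 day. At an unadjusted p under 0.05 there were 2 of the 10 at 1 day, 1 at 3 days, 1 at 5 days and 0 at 5 days against 1 day. The shares of all genes were 13.1%, 16.6%, 13.5% and 6.33% in that order. Both edgeR and DESeq2 on recovered reads called 0 of the 10. The 3 comparisons with 16w +dox share its mice.

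Uhrf1 was at 13.7, 10.6 and 13.2 FPM in 16w +dox and at 18.7, 18.8, 20.1 and 14.0 FPM in 1d -dox. All mice of 1d -dox were above all of 16w +dox. The log2 fold change was 0.50, with a 95% interval from 0.19 to 0.81, and the adjusted p was 0.163 in limma. At 3 days Uhrf1 was at 13.7, 12.7 and 17.6 FPM, and at 5 days it was at 13.8, 18.1 and 17.9 FPM, the latter again above 16w +dox (log2 fold change 0.39, adjusted p 0.290 in limma). Among all genes 5.6% at 1 day and 9.64% at 5 days had groups apart in this direction.

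Ezh2 was at 16.2, 11.4 and 16.6 FPM on dox, at 20.7, 18.1, 20.9 and 14.1 FPM at 1 day, at 19.4, 15.6 and 21.6 FPM at 3 days and at 15.8, 19.2 and 15.8 FPM at 5 days. The 4 groups overlapped, and the 95% interval of the log2 fold change at 5 days ran from -0.15 to 0.56. Hells was at 20.5, 12.3 and 18.2 FPM on dox and at 23.5, 23.9, 28.1 and 18.3 FPM at 1 day, a log2 fold change of 0.47 (adjusted p 0.250 in limma). Its groups overlapped at all 3 times.

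Ezh1 was at 9.06, 7.91 and 8.70 FPM on dox and at 10.7, 9.40 and 11.3 FPM at 3 days, both groups of males. The groups did not overlap, as for 10.6% of all genes in this direction, and the log2 fold change was 0.27 with an adjusted p of 0.158 in limma. At 5 days all 3 mice, at 7.82, 7.79 and 7.93 FPM, were lower than all 4 of 1d -dox, where 3.51% of all genes had groups apart in this direction. Both are groups of females, and the log2 fold change was -0.11, with a 95% interval from -0.29 to 0.068.

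Dnmt1 ranged from 130 to 176 FPM, Suz12 from 22.9 to 29.9 FPM, Dnmt3a from 39.6 to 47.8 FPM, Tet1 from 15.7 to 22.9 FPM and Eed from 6.71 to 9.93 FPM over the 13 mice. Dnmt3b ranged from 0.332 to 1.02 FPM, or 13 to 50 reads per library, which gave the widest intervals of the 10 genes. At 5 days against 16w +dox the lowest bound of the 95% intervals was -0.44, for Dnmt3b. No interval thus reached down to the -1.27 of Dnmt1 or the -1.19 of Tet1 in 12w-res against 12w+dox. Nor did any reach their -1.11 and -0.56 in 12w-res against 6w+dox, the group at the start of the dox-free period. The 2 experiments differ in library type and in weeks on dox. Each short-term group was of 1 sex, so sex and time off dox cannot be told apart for 1 day and 5 days against 16w +dox. The endothelial markers summed to 15.4 to 30.8 FPM in 16w +dox, 8.26 to 12.1 FPM at 1 day, 16.8 to 29.2 FPM at 3 days and 6.72 to 10.2 FPM at 5 days, with Cdh5 called lower at 1 and 5 days. Markers of other endocrine cells summed to 199.97 to 257 FPM on dox, 23.3 to 107 FPM at 1 day, 171 to 901 FPM at 3 days and 26.0 to 102 FPM at 5 days, and of these Lhb was called lower at 1 and 5 days and higher at 3 days. Fibroblast and mural markers summed to 81.3 to 109.9 FPM on dox, 40.6 to 53.8 FPM at 1 day, 59.5 to 123 FPM at 3 days and 37.2 to 62.9 FPM at 5 days, with Pdgfrb called lower at 5 days. The part of these cells in the values of the 10 genes was not tested.

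**Figure D5:**
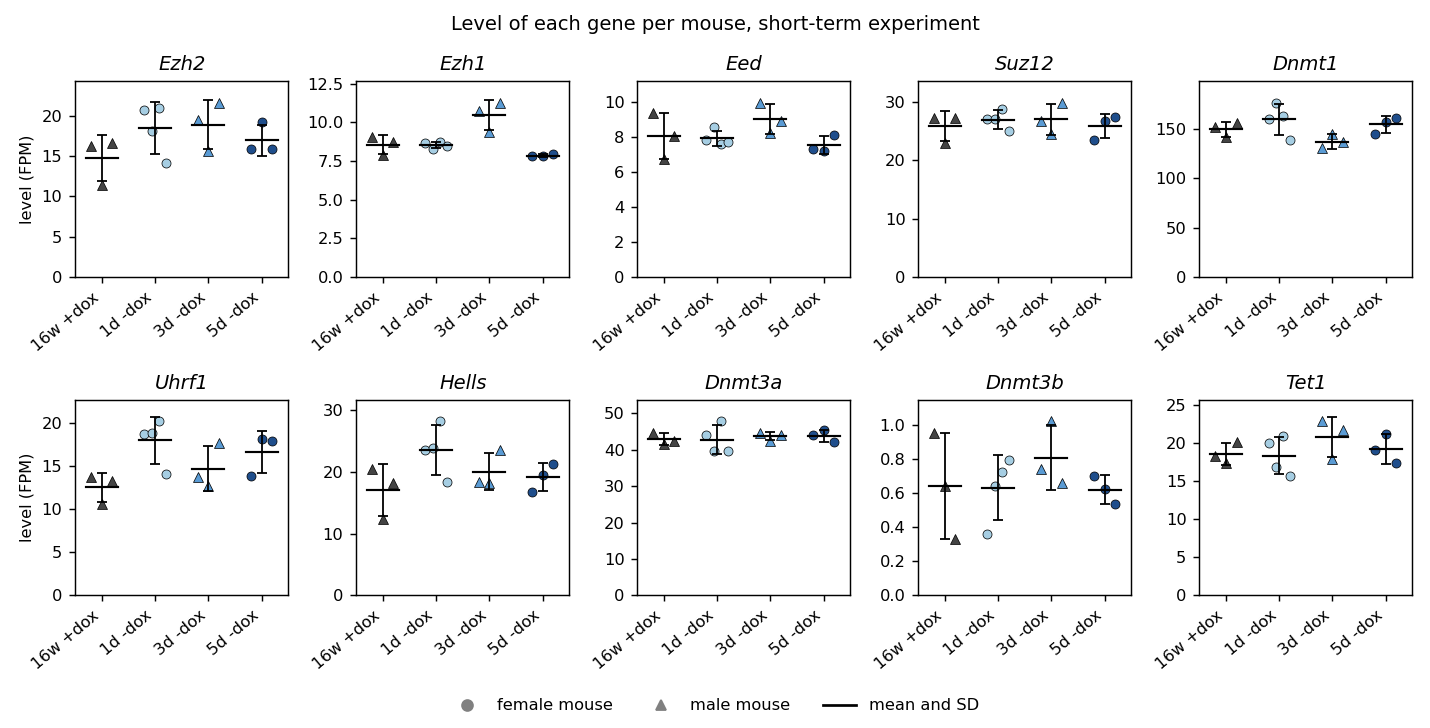
Level of each of the 10 genes (FPM, linear axis from 0) in each short-term mouse, drawn as in the plot of the long-term levels. The groups overlap for most genes, and for Uhrf1 the 4 mice of 1d -dox, at 14.0 to 20.1 FPM, lie above the 3 mice of 16w +dox, at 10.6 to 13.7 FPM.

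The short-term ratios had means of 0.77 to 1.10 for Ezh2 to Ezh1, 1.65 to 1.90 for Dnmt1 to Dnmt3a and -3.59 to -3.16 for Uhrf1 to Dnmt1 on the log2 scale. The largest difference was 0.43 for Uhrf1 to Dnmt1 at 1 day, with an exact permutation p of 0.0571, the smallest that 4 mice against 3 allow, and an adjusted p of 0.171. None of the 77 genes of the 7 wider lists that were tested was called in any short-term comparison, and the median of the cell cycle genes was 0.32 at 1 day, 0.12 at 3 days and 0.14 at 5 days.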

How the data were processed

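RNA from 25 pituitaries of shRb mice was sequenced as paired-end reads, per the labels after rRNA depletion in the short-term and poly(A) enrichment in the long-term experiment, although the labels call both mRNA preparations. The authors mapped reads to mm10 with STAR, kept a RefSeq gene where over 50% of the mice in some condition had 10 reads or more, and scaled counts with DESeq2. The deposited values are a signal in FPM, DESeq2-scaled fragment counts on one common library size, with no division by gene length. Counting tool and strand setting were not given in the sources used here. Within 0.1 read, 100% of values were whole multiples of 1 read in their library, and these recovered reads served edgeR and DESeq2 as alternatives. Lines naming no gene, 2 in the long-term and 4 in the short-term table, were left out. In the short-term table they held 68.8% to 75.0% of all reads. No column of values was left out.

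Values were tested as log2(FPM + 0.5) in limma 3.58.1 under R 4.3.3, trending the prior variance and putting every group of an experiment into 1 fit. Benjamini-Hochberg adjustment ran over all genes. Calls needed an adjusted p below 0.05 together with a log2 change beyond 1 in size. This scale understates the changes of low genes. Alternatives used edgeR 4.0.16, DESeq2 1.42.0, other pseudocounts, scalings, filters, sex as a covariate and each mouse left out. The scripts were tested on simulated data. Ratios within a mouse were compared by exact permutation (scipy 1.17.1). Nothing in the labels says that mice of a group came from separate litters, so p-values measure the spread between these mice.

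Genes named are the 10 genes, Rb1 and GFP, the 3 genes closest in profile to each, and list genes called in a comparison. Some of the genes closest in profile are not reported here. The 10 genes and the lists were chosen with earlier results of these data known. Promoter sequences and gene positions are those of RefSeq on GRCm38.p6, and 14634 of 15315 long-term symbols and 13474 of 14007 short-term symbols matched RefSeq. Transcript lengths and overlaps of exons between genes are those of the GENCODE annotation.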

Additional observations from a re-analysis of the deposited data

Results flagged for a closer look

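In the 12w+dox group, Hells was at 16.6 FPM in replicate 1 and at 21.2 to 21.3 FPM in the other 3 mice, a gap of 0.986 of the group's whole range. It was the 1 value that stood this far from its group among 39 groups of 4 or 5 mice examined, over the 10 genes and the 3 ratios, and chance alone gives about 1 in 20. Without this mouse Hells stayed lower in 12w-res than in 12w+dox.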

How the results depend on the processing

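The number of the 10 genes called kept its value in all comparisons under edgeR, DESeq2, both other pseudocounts, TMM scaling, no or a stricter filter, only the groups compared and, in the long-term experiment, sex as a covariate or female mice only, and whichever mouse was left out. All 15315 long-term genes passed the filter, so leaving it out was no separate check there. Without a minimum fold change 1 gene, Tet1, was called in 12w+dox against 6w+dox. There were 7 in place of 5 in 12w-res against 12w+dox and 6 in place of 4 in 12w-res against 6w+dox. Of all 15315 genes this setting called 1600 higher and 1833 lower in 12w+dox against 6w+dox. It called 2975 higher and 2807 lower in 12w-res against 12w+dox, and 2606 higher and 2566 lower in 12w-res against 6w+dox. With totals of reads 9 of the 10 were called in 12w-res against 12w+dox, beside 3364 of all 15315 genes called lower. Those added among the 10 were Ezh1 (-1.15), Eed (-1.22), Suz12 (-1.47) and Dnmt3a (-1.03). In 12w-res against 6w+dox 5 of the 10 were called with totals of reads, where Suz12 was at -1.10. Of all 15315 genes 1638 were called lower there. Small changes turned direction in places: Suz12 in 12w+dox against 6w+dox was -0.0017 with sex as a covariate, and Ezh1 in 12w-res against 6w+dox was -0.028 in edgeR, -0.030 in DESeq2 and -0.24 with totals of reads. The causes were not tested.

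With 1 mouse left out, log2 fold changes ran from -0.080 to 0.47 for Dnmt3a and from -0.021 to 0.092 for Suz12 in 12w+dox against 6w+dox. In 12w-res against 6w+dox they ran from -0.46 to 0.091 for Dnmt3a, from -0.14 to 0.043 for Dnmt3b and from -0.28 to 0.47 for Ezh1. The log2 ratio difference of 12w-res to 6w+dox ran from -2.67 to -2.07 for Ezh2 to Ezh1, from -1.18 to -0.74 for Dnmt1 to Dnmt3a and from -2.45 to -2.29 for Uhrf1 to Dnmt1, where with a mouse fewer no exact test could reach p under 0.05. In 12w+dox against 6w+dox it ran from -0.53 to 0.072 for Ezh2 to Ezh1 and from -0.28 to 0.16 for Dnmt1 to Dnmt3a. For Ezh2 to Ezh1 it ran from -0.046 to 0.15 at 3 days and from -0.12 to 0.060 at 5 days against 1 day. For Dnmt1 to Dnmt3a it ran from -0.049 to 0.065 at 5 days and from -0.15 to 0.0013 at 5 days against 1 day, and for Uhrf1 to Dnmt1 from -0.12 to 0.016 at 5 days against 1 day.

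Replicate numbers did not pair the mice: deviations of same-numbered mice correlated over 0.1 in 1 of 10 long-term and 3 of 18 short-term pairs. With the replicate number as a block, the calls among the 10 genes were 0, 5 and 4 in the long-term comparisons and 0 in the short-term ones. Depth limits Dnmt3b most, at 13 to 79 reads per library.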
